A study of Mus musculus with 4 samples.

Results

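The genes described here are 10 muscle genes known for their response to mechanical load or injury, namely Ankrd1, Ankrd2, Ankrd23, Xirp1, Xirp2, Fhl1, Fhl2, Csrp3, Tnfrsf12a and Gdf15. They were chosen by name, and all 10 were found among the 23847 rows of a table of gene expression in mouse ventricle. The first group came from ventricles of male mice on the C57BL/6 background that overexpressed Cdk8 only in the heart (Cdk8Tg, 2 libraries), and the second from wild-type mice of the same sex, background and age (WT, 2 libraries), all at postnatal day 21. Polyadenylated RNA was sequenced, and values are FPKM, which scale fragment numbers to transcript length and sequencing depth. Cdk8 is a kinase that associates with Mediator, a coactivator of RNA polymerase II, and the series asks what an excess of it does to the heart. No label names the promoter of the transgene, its founder lines or the animals behind each library. Nothing therefore says that the libraries are separate animals, and p-values reflect library-to-library spread, which may be technical.

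Heart muscle cells sense stretch through titin, the giant spring of the sarcomere, and through the Z-disc to which it is anchored. Several proteins sit at these places and also move to the nucleus. They include the muscle ankyrin repeat proteins (MARPs) Ankrd1, Ankrd2 and Ankrd23, which bind the titin spring, and LIM-domain proteins such as Fhl1, Fhl2 and Csrp3. Xirp1 and Xirp2 are actin-binding Xin-repeat proteins of the intercalated disc, Tnfrsf12a encodes Fn14, the receptor for the cytokine TWEAK, and Gdf15 encodes a secreted stress hormone. Their genes are widely used as markers of an overloaded or injured heart, Ankrd1 above all.

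The level of Cdk8 fitted the labels, with 7309 and 8122 FPKM in Cdk8Tg against 7.89 and 9.86 FPKM in WT. Ventricular markers were abundant throughout, with the summed level of 7 genes at 36810 and 35083 FPKM in Cdk8Tg, against 51231 and 48962 FPKM in WT, and 5 of the 7 fell. The skeletal myosin genes Myh1, Myh2 and Myh4 stayed under 0.05 FPKM in all libraries, and Myod1 was listed at 0. Of the 10 skeletal muscle markers, 2 were tested. Mybpc2, at 5.49 and 10.7 FPKM in Cdk8Tg against 7.36 and 6.63 FPKM in WT, was not called. Tnni2 fell, at 1.37 and 0.948 FPKM in Cdk8Tg against 8.41 and 6.76 FPKM in WT (log2 change -1.99, limma adjusted p = 0.0038). The spacing of low FPKM values gave the Cdk8Tg libraries a depth of 0.876 and 0.847 times that of WT replicate 1, and WT replicate 2 a depth of 1.002 times, if each library was scaled by its own fragment total. The absolute depth is unknown. Of 11888 rows with a mean of at least 1 FPKM, 2958 passed the test (limma on log2(FPKM + 1), Benjamini-Hochberg adjusted p under 0.05), which is 24.9%. Rises made up 67.9% of these calls, against 40.6% after median-of-ratios scaling, 48.8% with quantile normalization and 88.2% on an equal-sum scale, on which all libraries have the same total FPKM.

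Against that background the 10 genes did not move as a block. Ankrd1 and Tnfrsf12a rose in the Cdk8Tg ventricles, Fhl2 fell, 6 genes were not called and Ankrd2 was too low to be tested. The 2 rises among 9 tested genes compare with 16.9% of all rows, and the single fall with 7.98%, so these shares are near the background. The groups did not overlap for 6 of the 9 genes, against 70.3% of all rows. Cdk8Tg was the higher group in 4 of these, against 49.2% of all rows, and the lower in 2, against 21.1%. The median log2 change of the 9 genes was 0.40, against 0.13 for all tested rows. Changes are given as deposited, and median-of-ratios scaling brings the median of all rows to 0.00. On the equal-sum scale that median is 0.30, and with quantile normalization 0.01. Gdf15 passed the filter only through Cdk8Tg. Leaving out Cdk8Tg replicate 1 raised the 3 calls to 6, and leaving out WT replicate 1 left 1. With WT replicate 2 left out, limma called 0 genes, with 4 at an unadjusted p under 0.05, while the authors' deposited table calls 4. In whole tissue, fewer cells of a type and less RNA per cell cannot be told apart.

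**Figure D1:**
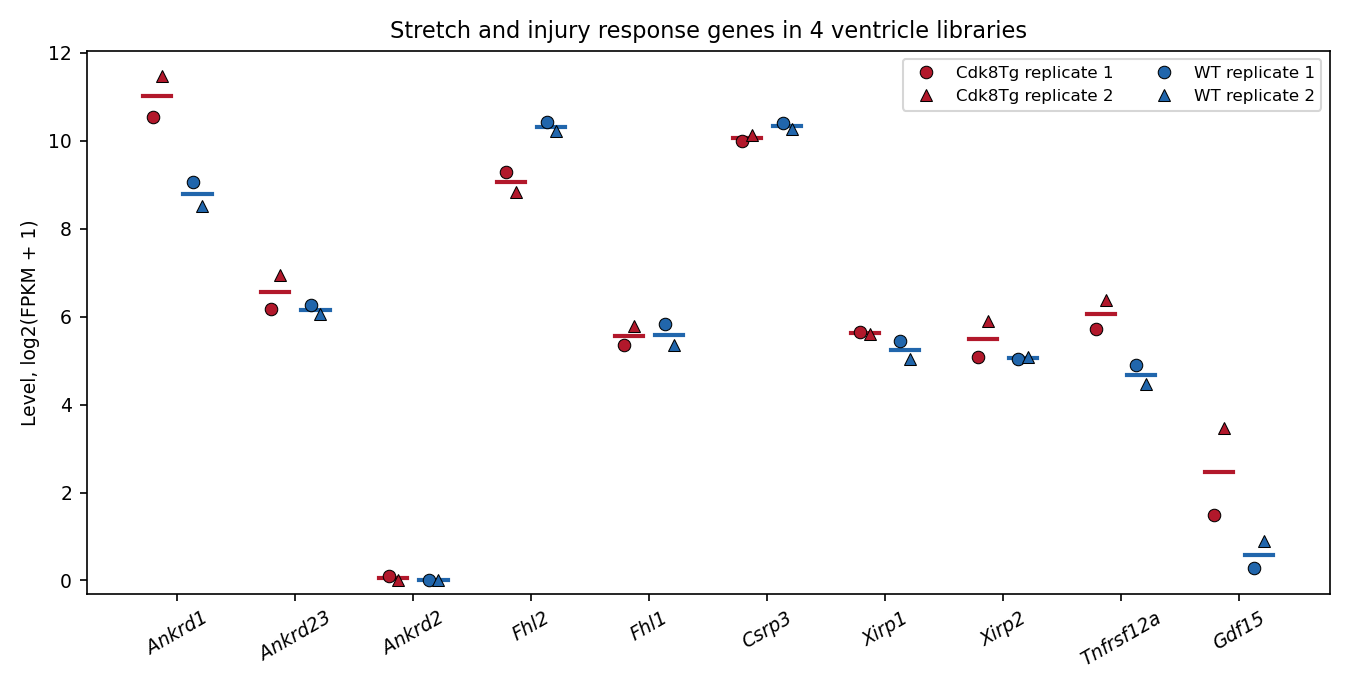
Level of each gene, as log2(FPKM + 1), in the 2 Cdk8Tg libraries (red, left of each pair) and the 2 WT libraries (blue, right); circles are replicate 1, triangles replicate 2 and bars the group means. Ankrd1 and Tnfrsf12a lie higher and Fhl2 lower in Cdk8Tg, the groups of Csrp3, Fhl1 and Xirp1 lie close together, and Xirp2 is high in Cdk8Tg replicate 2 alone.

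Ankrd1, the stretch-responsive MARP of the heart, showed the largest called change of the set. It stood at 1492 and 2842 FPKM in Cdk8Tg, against 534 and 364 FPKM in WT. Both Cdk8Tg libraries lay well above both WT libraries, and Cdk8Tg replicate 2 was 1.90 times replicate 1. Among all 23847 rows Ankrd1 ranked 29 and 11 in the Cdk8Tg libraries and 134 and 230 in the WT libraries. The means were 2167 ± 954 FPKM in Cdk8Tg and 449 ± 120 FPKM in WT (SD, n = 2 each), a ratio of 4.83 and a log2 change of 2.22 ± 0.34 (SE; limma, adjusted p = 0.013). It was no longer called when WT replicate 2 was left out (log2 change 1.95, limma adjusted p = 0.087) or with no filter on low FPKM (adjusted p = 0.060). Markers of atrial muscle, a tissue that also expresses Ankrd1, summed to 861 and 2416 FPKM in Cdk8Tg, against 670 and 225 FPKM in WT. Most of the sum in Cdk8Tg was Nppa, the atrial natriuretic peptide gene, at 780 and 2072 FPKM, against 395 and 199 FPKM in WT. Myl7 and Sln had lower means in Cdk8Tg, at 30.6 and 5.08 FPKM, than in WT, at 74.0 and 22.9 FPKM. These WT means rested mostly on replicate 1, with Myl7 at 136 and 11.6 FPKM and Sln at 43.8 and 2.08 FPKM in WT. Myl4 had a higher mean in Cdk8Tg, at 177 FPKM against 53.0 FPKM in WT. Myl4, Myl7 and Sln were not called, and each overlapped between the groups. Of the tested markers only Nppa rose, so the sum follows Nppa and is not a measure of atrial tissue. The part of these markers in the result was not tested.

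The promoter of Ankrd1 is printed because the gene has the largest called change. The gene (ENSMUSG00000024803.9) has 8 separate exon blocks on chromosome 19 of GRCm38, at 36111961 to 36120099 on the minus strand. The RefSeq window from 250 bases before to 50 bases after its start (GRCm38.p6, chr19:36119795-36120094, minus strand, read 5′ to 3′ along the gene) has a start that coincides with the end of the locus in the authors' deposited table. Capitals mark 3 motif matches, all on the opposite strand. The MCAT motif, known as the site of TEAD factors, was searched as CATTCC on both strands, and accounts for the pair of matches farther from the start.
Ankrd1: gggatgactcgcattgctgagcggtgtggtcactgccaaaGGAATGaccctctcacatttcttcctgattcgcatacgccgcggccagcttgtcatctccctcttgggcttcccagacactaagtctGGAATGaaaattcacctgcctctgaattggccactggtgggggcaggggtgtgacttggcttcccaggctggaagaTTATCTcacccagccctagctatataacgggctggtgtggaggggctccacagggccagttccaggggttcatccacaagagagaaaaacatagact
The MCAT matches begin 210 and 123 bases before the start. A motif of GATA factors, which act in heart muscle genes, was searched as AGATAA on both strands, and its match begins 47 bases before the start. Of 32817 windows of this length in RefSeq, 14.7% hold the MCAT letters and 11.2% the GATA letters on either strand, so either is common. RefSeq had windows for 9 of the 10 genes, 14 in all, and 4 of the 14 held MCAT, in Ankrd1, Ankrd23 and Gdf15. A match describes letters only and says nothing of binding.

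Ankrd23, a MARP of heart and skeletal muscle (GRCm38 chromosome 1, 36530188 to 36536883), was not called. It was at 70.8 and 123 FPKM in Cdk8Tg, against 75.3 and 65.8 FPKM in WT, so that Cdk8Tg replicate 1 lay between the WT libraries and only replicate 2 stood apart. Its log2 change was 0.40 ± 0.26 (SE; limma, adjusted p = 0.28). It was 0.80 without Cdk8Tg replicate 1 and 0.01 without Cdk8Tg replicate 2, each resting on 1 Cdk8Tg library. In GENCODE, 2109 of its 2697 exonic bases are also exonic in Gm42417, transcribed the same way, so reads cannot be assigned with certainty.

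Ankrd2, the MARP typical of slow skeletal muscle (chromosome 19, 42036000 to 42045110), was listed at 0.081 FPKM in Cdk8Tg replicate 1 and at 0 in the other libraries, and was not tested. Ankrd1 thus made up 95.5% and 95.9% of the summed MARP level in Cdk8Tg, against 87.6% and 84.7% in WT, and Ankrd23 made up the rest. Ankrd1 was 21.1 and 23.1 times as high as Ankrd23 in Cdk8Tg, and 7.09 and 5.53 times in WT. A factor applied to a whole library leaves this ratio of levels as it is, though quantile normalization does not. It was nearly equal in the 2 Cdk8Tg libraries although both genes differed between them.

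Among the LIM-domain genes, Fhl2 fell while Fhl1 and Csrp3 were not called. Fhl2, a cofactor that binds titin and many signalling proteins, stood at 628 and 454 FPKM in Cdk8Tg, against 1371 and 1194 FPKM in WT. Both Cdk8Tg libraries lay far below both WT libraries. Means were 541 ± 123 FPKM in Cdk8Tg and 1282 ± 125 FPKM in WT (SD, n = 2 each), a ratio of 0.422 and a log2 change of -1.26 ± 0.18 (SE; limma, adjusted p = 0.011). It remained lower under each scaling, at -1.41 with median-of-ratios scaling, -0.91 with quantile normalization and -1.06 on the equal-sum scale. The call was lost without WT replicate 1 (adjusted p = 0.072), without WT replicate 2 (adjusted p = 0.072) and with no filter (adjusted p = 0.054).

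The direction of Fhl2 was opposite to that of Ankrd1, although both encode partners of the titin spring. Among the 5 ventricular markers that fell were Myh6, Tnnt2 and Myl3, which encode sarcomere proteins, with log2 changes of -0.59, -0.59 and -0.66. Their part in the result for Fhl2 was not tested. The log2 changes of the 7 markers ran from -0.81 to -0.19, against -1.26 for Fhl2, and the difference between them was not tested.

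Both RefSeq windows of Fhl2 are printed, because each carries a CArG box, the site of serum response factor (SRF), a regulator of muscle and growth genes. Fhl2 (ENSMUSG00000008136.14) lies on chromosome 1 of GRCm38 at 43123074 to 43196984 on the minus strand. The first window below (GRCm38.p6, chr1:43163912-43164211, minus strand) fits the end of the locus in the authors' deposited table and the second (chr1:43196712-43197011, minus strand) lies upstream. Capitals mark the CArG box in both and, in the second, the GATA letters and the TATA box letters TATAAA, both on the opposite strand.
Fhl2 start in the authors' locus: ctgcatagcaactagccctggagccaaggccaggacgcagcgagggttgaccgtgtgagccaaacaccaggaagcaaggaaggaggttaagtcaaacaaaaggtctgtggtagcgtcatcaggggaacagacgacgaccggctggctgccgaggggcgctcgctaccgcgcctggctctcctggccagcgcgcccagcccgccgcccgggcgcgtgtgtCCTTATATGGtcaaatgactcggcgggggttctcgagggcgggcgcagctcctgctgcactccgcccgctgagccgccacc
Fhl2 upstream start: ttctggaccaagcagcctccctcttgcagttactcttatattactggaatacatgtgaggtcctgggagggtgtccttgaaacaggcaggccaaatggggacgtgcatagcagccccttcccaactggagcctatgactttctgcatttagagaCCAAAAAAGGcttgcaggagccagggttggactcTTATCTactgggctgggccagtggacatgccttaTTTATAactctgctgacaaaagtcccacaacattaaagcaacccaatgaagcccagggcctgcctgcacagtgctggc
The CArG boxes begin 31 and 96 bases before these starts. Of all RefSeq windows 1.63% hold a CArG box, and 3 of the 14 windows of the genes described here do, the third being one of Fhl1. TATAAA occurs in 13.6% of windows.

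Fhl1, which is found at the sarcomere and is linked to the signalling of titin strain (chromosome X, 56731787 to 56793346), was at 39.6 and 54.5 FPKM in Cdk8Tg, against 55.9 and 40.0 FPKM in WT. The groups covered the same range. Its log2 change was -0.02 ± 0.21 (SE; limma, adjusted p = 0.94), and 0.17 with no call on the equal-sum scale. Fhl2 was 15.8 and 8.32 times as high as Fhl1 in Cdk8Tg, against 24.5 and 29.9 times in WT. Fhl2 thus remained the main FHL gene, at 93.5% and 88.7% of the summed FHL level in Cdk8Tg and at 95.8% and 96.5% in WT.

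Csrp3, or muscle LIM protein, a Z-disc protein whose loss causes dilated cardiomyopathy in mice (chromosome 7, 48830398 to 48848033), was at 1024 and 1112 FPKM in Cdk8Tg, against 1345 and 1222 FPKM in WT. The Cdk8Tg libraries lay a little below the WT libraries, with no overlap. Its log2 change was -0.26 ± 0.11 (SE; limma, adjusted p = 0.13), and 0.13 with quantile normalization, so its direction depended on the scaling. The other members of its family differed from it: Csrp1, a smooth muscle and non-muscle LIM protein, rose (log2 change 1.11 ± 0.18, limma adjusted p = 0.015), and so did Csrp2, another smooth muscle form, which is named after its value was seen (0.70 ± 0.14, limma adjusted p = 0.023). Csrp3 was 15.6 and 11.7 times as high as Csrp1 in Cdk8Tg, against 35.0 and 36.1 times in WT. The call of Csrp1 was lost without WT replicate 1 (adjusted p = 0.065), without WT replicate 2 (0.094) and with no filter (0.061). Smooth muscle markers summed to 437 and 738 FPKM in Cdk8Tg, against 354 and 357 FPKM in WT, with 1 of 5 rising (Cnn1) and 1 falling (Smtn). Their part in the rise of Csrp1 and Csrp2 was not tested.

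**Figure D2:**
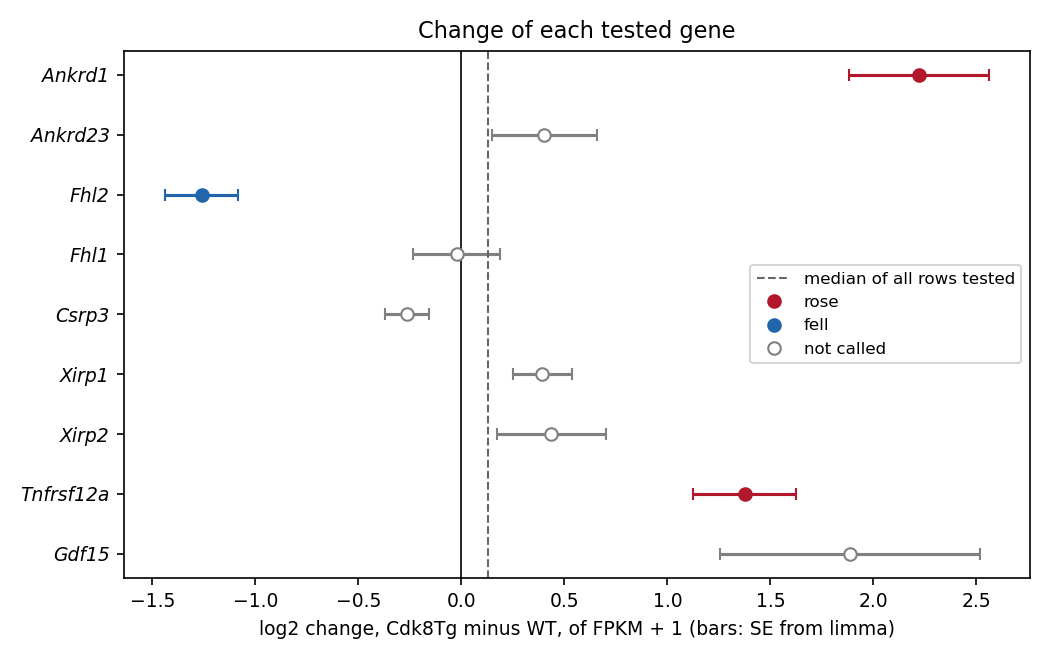
Change in log2(FPKM + 1), Cdk8Tg minus WT, of the 9 tested genes, with SE from limma as bars. Filled red points rose, filled blue points fell and open points were not called; the dashed line is the median of all tested rows (0.13). Ankrd1 and Tnfrsf12a lie to the right, Fhl2 to the left, and Gdf15 has a wide bar.

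The Xin-repeat genes were not called. Xirp1, which binds actin at the intercalated disc and appears early in muscle repair (chromosome 9, 120013755 to 120023598), was at 49.6 and 47.6 FPKM in Cdk8Tg, against 42.4 and 31.8 FPKM in WT. Both Cdk8Tg libraries were above both WT libraries, with a gap between the groups smaller than that between the WT libraries. The log2 change was 0.39 ± 0.14 (SE; limma, adjusted p = 0.10). It was 0.59 with a call on the equal-sum scale (limma adjusted p = 0.024), on which the median of all rows is 0.30. With median-of-ratios scaling it was 0.25 and with quantile normalization 0.35, with no call (limma adjusted p = 0.26 and 0.16).

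Xirp2, a partner of alpha-actinin at the same sites (chromosome 2, 67446002 to 67526614), was at 32.6 and 59.2 FPKM in Cdk8Tg, against 31.6 and 32.9 FPKM in WT. Here 3 of the libraries were nearly level and Cdk8Tg replicate 2 alone was high. Its log2 change of 0.44 ± 0.26 (limma, Benjamini-Hochberg adjusted p = 0.26) became 0.86 without Cdk8Tg replicate 1, with a call (adjusted p = 0.0095), and 0.02 without Cdk8Tg replicate 2 (adjusted p = 0.92).

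The injury receptor gene Tnfrsf12a rose. Fn14, which it encodes, is low in resting tissue and is induced by injury and growth factors in heart muscle cells and in other cell types. It was at 52.1 and 82.2 FPKM in Cdk8Tg, against 28.9 and 21.0 FPKM in WT, so the lowest Cdk8Tg library was still well above the highest WT library. Means were 67.1 ± 21.3 FPKM in Cdk8Tg and 24.9 ± 5.63 FPKM in WT (SD, n = 2 each), a ratio of 2.69 and a log2 change of 1.37 ± 0.25 (SE; limma, adjusted p = 0.019). The call did not hold without WT replicate 1 (log2 change 1.60, adjusted p = 0.056), without WT replicate 2 (1.15, adjusted p = 0.10) and with no filter (adjusted p = 0.072).

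Tnfrsf12a (ENSMUSG00000023905.15) is a compact gene on chromosome 17 of GRCm38, at 23675445 to 23677468 on the minus strand. Its promoter is shown to complete the 3 genes that passed the test (GRCm38.p6, chr17:23677400-23677699, minus strand), and it has no capitals because none of the 4 motifs searched is in this window.
Tnfrsf12a: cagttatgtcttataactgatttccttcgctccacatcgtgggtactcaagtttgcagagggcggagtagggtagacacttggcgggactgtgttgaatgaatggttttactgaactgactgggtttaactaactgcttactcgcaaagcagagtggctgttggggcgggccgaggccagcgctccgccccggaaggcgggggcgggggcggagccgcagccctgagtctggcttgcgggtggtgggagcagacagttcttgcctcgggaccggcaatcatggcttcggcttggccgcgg
The ligand gene Tnfsf12 (TWEAK), named after its value was seen, was at 8.31 and 9.70 FPKM in Cdk8Tg, against 8.11 and 8.15 FPKM in WT, and was not called (log2 change 0.13, limma adjusted p = 0.38). Fibroblasts also express Fn14, and 5 of 7 fibroblast markers rose, with the summed level at 989 and 1296 FPKM in Cdk8Tg against 820 and 746 FPKM in WT. The part of this shift in the rise of Tnfrsf12a was not tested.

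Gdf15, a hormone of the TGF-beta superfamily released under cell stress (chromosome 8, 70629393 to 70632456), was the most variable gene of the set. It was at 1.81 and 9.98 FPKM in Cdk8Tg, against 0.217 and 0.863 FPKM in WT. Both Cdk8Tg libraries were higher than both WT libraries, yet Cdk8Tg replicate 2 was 5.50 times replicate 1, and WT replicate 1 was 0.251 times WT replicate 2. The means were 5.90 ± 5.78 FPKM in Cdk8Tg and 0.540 ± 0.457 FPKM in WT (SD, n = 2 each), and the gene passed the filter on low values only through the Cdk8Tg libraries. The log2 change of 1.88 ± 0.63 was not called (SE; limma, adjusted p = 0.081), and it was 2.99 with a pseudocount of 0.1 and 0.87 with a pseudocount of 5. The authors' deposited table gives 6.65 FPKM in Cdk8Tg and 0.690 FPKM in WT with a q-value of 0.0016, so the authors' comparison, which calls 14.0% of its tested genes (5.53% as rises and 8.43% as falls), called it. Without Cdk8Tg replicate 2 the log2 change was 0.90 with no call, and without Cdk8Tg replicate 1 it was 2.87 with a call (limma adjusted p = 0.0071).

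The authors' deposited table also called Ankrd1, Tnfrsf12a and Fhl2. Its group FPKM are on another scale than the FPKM per library. For the 9 tested genes its WT values were 1.24 to 1.28 times the WT means used here. Its log2 changes were 2.11 for Ankrd1, 1.26 for Tnfrsf12a and -1.37 for Fhl2, against 2.22, 1.37 and -1.26 by limma. Its counts of rises and falls are therefore not like for like with those of limma. In the authors' deposited table Ankrd1 was at 2445 FPKM in Cdk8Tg and 567 FPKM in WT. Fhl2 was at 614 FPKM in Cdk8Tg and 1590 FPKM in WT there, each with a q-value of 8.6e-04. Tnfrsf12a was at 75.9 FPKM in Cdk8Tg and 31.6 FPKM in WT in the authors' deposited table, with a q-value of 0.039. The other 5 genes tested there, Ankrd23, Xirp1, Xirp2, Fhl1 and Csrp3, had q-values of 0.17 to 0.59 in the authors' deposited table.

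The Cdk8Tg libraries differed from each other in several of these genes. In 5 of the 9 tested genes, Ankrd1, Ankrd23, Xirp2, Tnfrsf12a and Gdf15, replicate 2 was at least 1.5 times replicate 1, against 4.42% of all tested rows, a comparison made after the values were seen. Fhl2 went the other way, at 0.722 times. Ankrd1 and Tnfrsf12a, which rose, and Fhl2, which fell, thus all stood further from WT in Cdk8Tg replicate 2. Atrial markers were also higher in Cdk8Tg replicate 2, and in WT they were higher in replicate 1. Of the 5 atrial markers, 4 were tested, 1 rose (Nppa) and Bmp10 was listed at 0 throughout.

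The atrial light chain Myl7, which is low in healthy ventricle, was at 8.51 and 52.7 FPKM in Cdk8Tg, against 136 and 11.6 FPKM in WT. Between the libraries with the least Myl7, Cdk8Tg replicate 1 and WT replicate 2, other atrial markers still differed, in both directions. Myl4 was at 72.5 FPKM in Cdk8Tg against 11.7 FPKM in WT, and Nppa at 780 FPKM in Cdk8Tg against 199 FPKM in WT. Sln went the other way, at 0.218 FPKM in Cdk8Tg against 2.08 FPKM in WT. In this pair Ankrd1 was at 1492 FPKM in Cdk8Tg and 364 FPKM in WT, a log2 difference of 2.03, and Tnfrsf12a differed by 1.27 and Fhl2 by -0.93. Gdf15 differed by 0.60 between them and Xirp2 by -0.01. These differences have no test, since they rest on 1 library per group, and the pair is not matched in atrial markers.

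**Figure D3:**
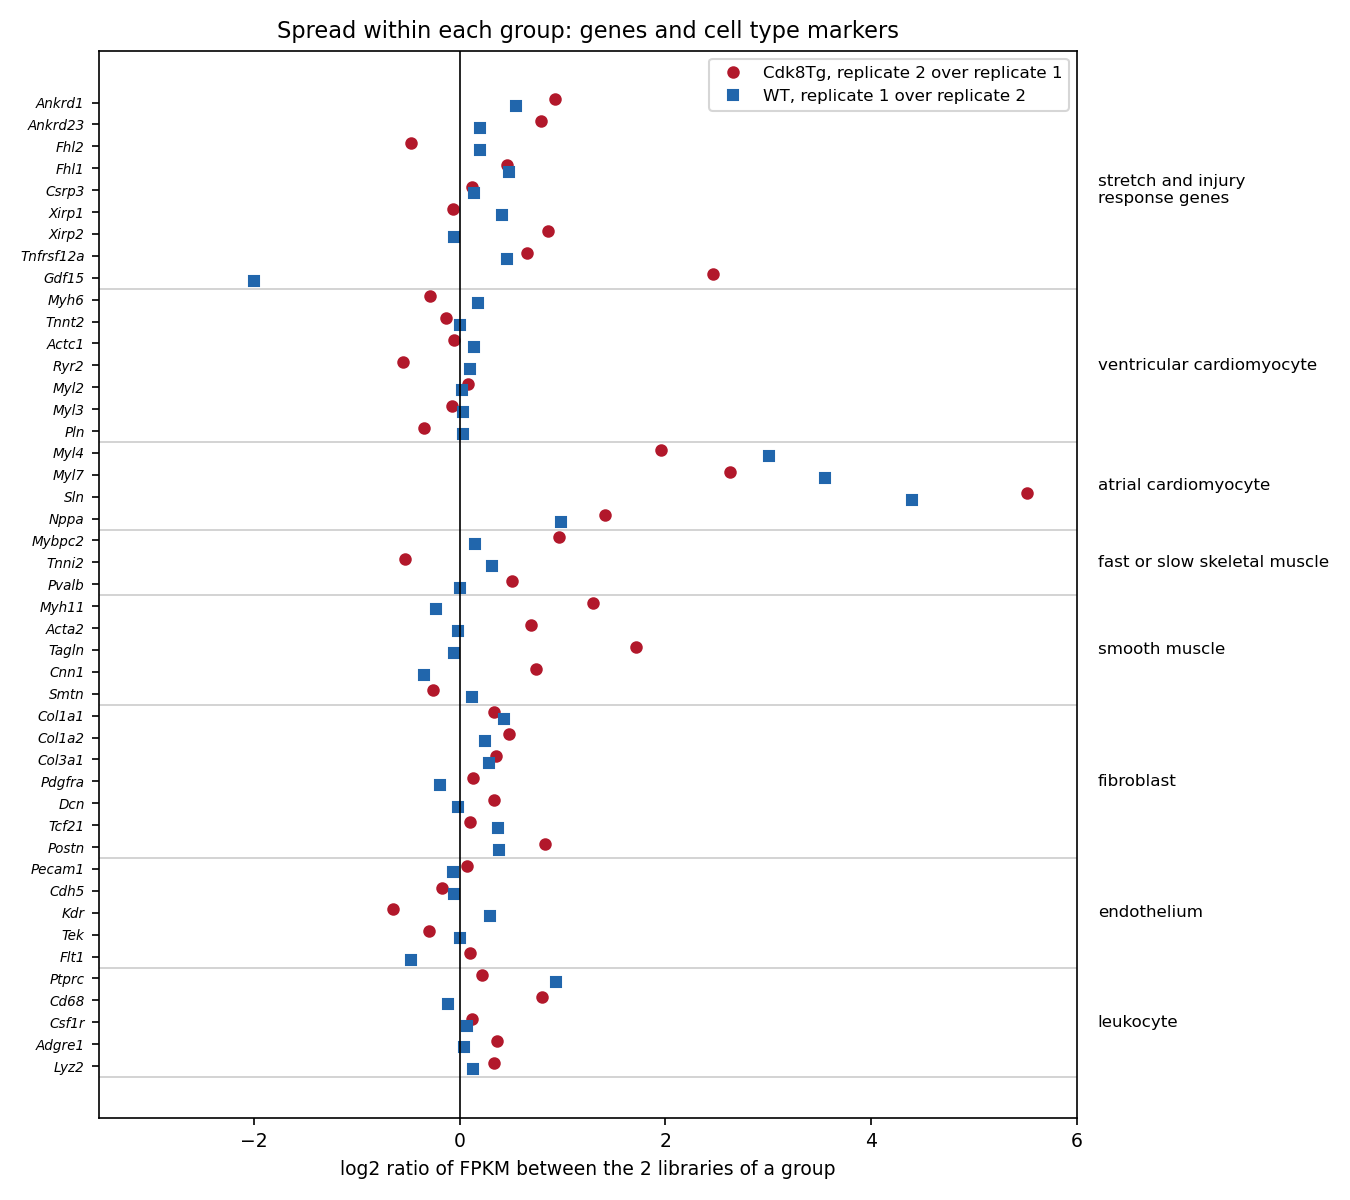
Log2 ratio of FPKM between the 2 libraries of each group, for the 9 tested genes and for markers of 7 cell types above 0 in every library and reaching 1 FPKM; red circles are Cdk8Tg replicate 2 over replicate 1, and blue squares WT replicate 1 over replicate 2. Atrial markers lie far to the right in both groups, 4 of 5 smooth muscle markers lie to the right in Cdk8Tg, and Gdf15 lies on opposite sides in the 2 groups.

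Genes around these 10 were taken from 6 lists, and 33 of the 111 tested pathway genes were called, against 24.9% of all rows. Of these calls 22 were rises and 11 falls. Over all rows 16.9% rose and 7.98% fell, and these shares are the background for the counts of each list below. Whether a list differed from that background was not tested. Leaving out Cdk8Tg replicate 1 gave 35 calls and leaving out Cdk8Tg replicate 2 gave 18. The counts were 9 when WT replicate 1 was dropped and 3 when WT replicate 2 was. Among 15 tested relatives with LIM domains, 5 rose and 2 fell, against 4 and 2 with median-of-ratios factors and 6 and 2 on the equal-sum scale, while the authors' deposited table has 4 rises and 2 falls. The median log2 change of this list was -0.03. Pdlim4, an actin-linked PDZ and LIM protein, fell to 4.16 and 4.07 FPKM in Cdk8Tg, against 16.7 and 23.4 FPKM in WT (log2 change -2.02 ± 0.16, limma adjusted p = 0.0040). Pdlim7 rose by 0.62, and Ablim1, an actin-binding LIM protein, changed by -0.61, with limma adjusted p of 0.011 for either. The authors' deposited table gives Pdlim7 a q-value of 0.11 and Ablim1 a q-value of 8.6e-04.

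Of 22 tested titin and Z-disc partners, 7 fell and 2 rose, with equal counts after median-of-ratios scaling and with 5 falls and 7 rises on the equal-sum scale. The authors' deposited table has 6 falls and 1 rise among these genes. Their median was -0.03, and of all rows 7.98% fell and 16.9% rose. Titin itself (Ttn) was at 46.7 and 42.1 FPKM in Cdk8Tg, against 82.5 and 81.7 FPKM in WT, a log2 change of -0.87 ± 0.09 (limma adjusted p = 0.0057). Tcap, which caps titin at the Z-disc, and Myoz2, a calcineurin-binding Z-disc protein, changed by -1.76 and -1.08. The call of Ttn was lost without WT replicate 2 (limma adjusted p = 0.052), and the authors' deposited table gives it a q-value of 0.068.

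In the Hippo pathway, which restrains the TEAD coactivators YAP and TAZ, 6 of 25 tested genes rose and 0 fell, against 4 and 0 after median-of-ratios scaling and 13 and 0 on the equal-sum scale. By limma 0 of them fell at an unadjusted p under 0.05 as well, and the authors' deposited table has 4 rises and 0 falls. The list's median was 0.27, and of all rows 16.9% rose and 7.98% fell. Mob1b and Stk3, of the kinase cascade, rose by 0.63 and 0.52, the scaffold Amot by 0.67 and the ectonucleotidase gene Nt5e by 0.77. With no filter Stk3 and Amot lost their calls (limma adjusted p = 0.059 and 0.068), and Amot also with quantile normalization (0.051). The authors' deposited table gives Stk3 a q-value of 0.18, and Mob1b, Amot and Nt5e q-values of 0.046, 0.0086 and 0.0061. Yap1, which encodes YAP and is named after its value was seen, rose by 0.37 (limma adjusted p = 0.035). The well-known YAP targets Ctgf and Cyr61, also named after their values were seen, were not called. Ctgf was at 48.9 and 103 FPKM in Cdk8Tg, against 43.6 and 47.8 FPKM in WT, so that it too was high in Cdk8Tg replicate 2 alone. Cyr61 was at 14.9 and 23.1 FPKM in Cdk8Tg, against 12.7 and 13.8 FPKM in WT, without overlap.

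Of 22 genes of the SRF and MRTF pathway, which couples actin to transcription, 4 rose and 0 fell, against 1 and 0 with median-of-ratios factors and 7 and 0 on the equal-sum scale, and with a median of 0.11. By limma 0 fell at an unadjusted p under 0.05, and the authors' deposited table has 1 rise and 1 fall. Here too the background is 16.9% of rows rising and 7.98% falling. The actin-binding genes Pfn1, Cnn2 and Cfl1 rose by 0.86, 0.94 and 0.45 and the SRF coactivator Myocd by 0.38. Of these, Cnn2, Cfl1 and Myocd lost their calls after median-of-ratios scaling, and the authors' deposited table gives them q-values of 0.89, 0.34 and 0.41. Of the 31-base stretches of Cfl1, 13.2% also occur in other annotated genes, so its value is uncertain. Srf itself, named after its value was seen, was not called, at 26.9 and 32.7 FPKM in Cdk8Tg against 23.4 and 24.5 FPKM in WT.

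Of 16 tested genes of TWEAK, its binding partners and the NF-kappaB pathway, 1 rose and 1 fell, against 0 and 2 with median-of-ratios factors and 9 and 1 on the equal-sum scale, and with a median of 0.18. The authors' deposited table has 0 rises and 1 fall among them. Traf3, an adaptor that restrains noncanonical NF-kappaB signalling, rose by 0.56, and Cd163, a scavenger receptor of macrophages that binds TWEAK, changed by -0.78. The call of Traf3 was lost after median-of-ratios scaling (limma adjusted p = 0.051). The inhibitor gene Nfkbia and the kinase gene Ikbkb were not called, at -0.54 and 0.30. Leukocyte markers summed to 79.7 and 99.97 FPKM in Cdk8Tg, against 121 and 112 FPKM in WT, with 1 of 5 falling (Csf1r), and their part in the fall of Cd163 was not tested.

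Among 11 tested genes that induce Gdf15 or are induced with it under stress, 4 rose and 1 fell, against 2 and 1 with median-of-ratios factors and 6 and 1 on the equal-sum scale, and with a median of 0.41. The authors' deposited table has 1 rise and 1 fall among them. Ddit3, which encodes the stress factor CHOP, Atf5 and Ppp1r15a rose by 0.59, 0.57 and 0.53, and the call of Ppp1r15a was lost after median-of-ratios scaling (limma adjusted p = 0.062). Chac1, a glutathione-degrading enzyme and a usual target of ATF4 and CHOP, fell to 0.645 and 0.722 FPKM in Cdk8Tg, against 5.69 and 8.58 FPKM in WT, a log2 change of -2.25 ± 0.19 (limma adjusted p = 0.0042). The call of Ddit3 was lost without Cdk8Tg replicate 2 (limma adjusted p = 0.052), WT replicate 1 (0.083) or WT replicate 2 (0.11) and with no filter (0.056). Atf5 lost its call under these settings too, with limma adjusted p of 0.070, 0.055, 0.11 and 0.057 in the same order. In the authors' deposited table the q-values were 0.41 for Ddit3 and 0.39 for Atf5.

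**Figure D4:**
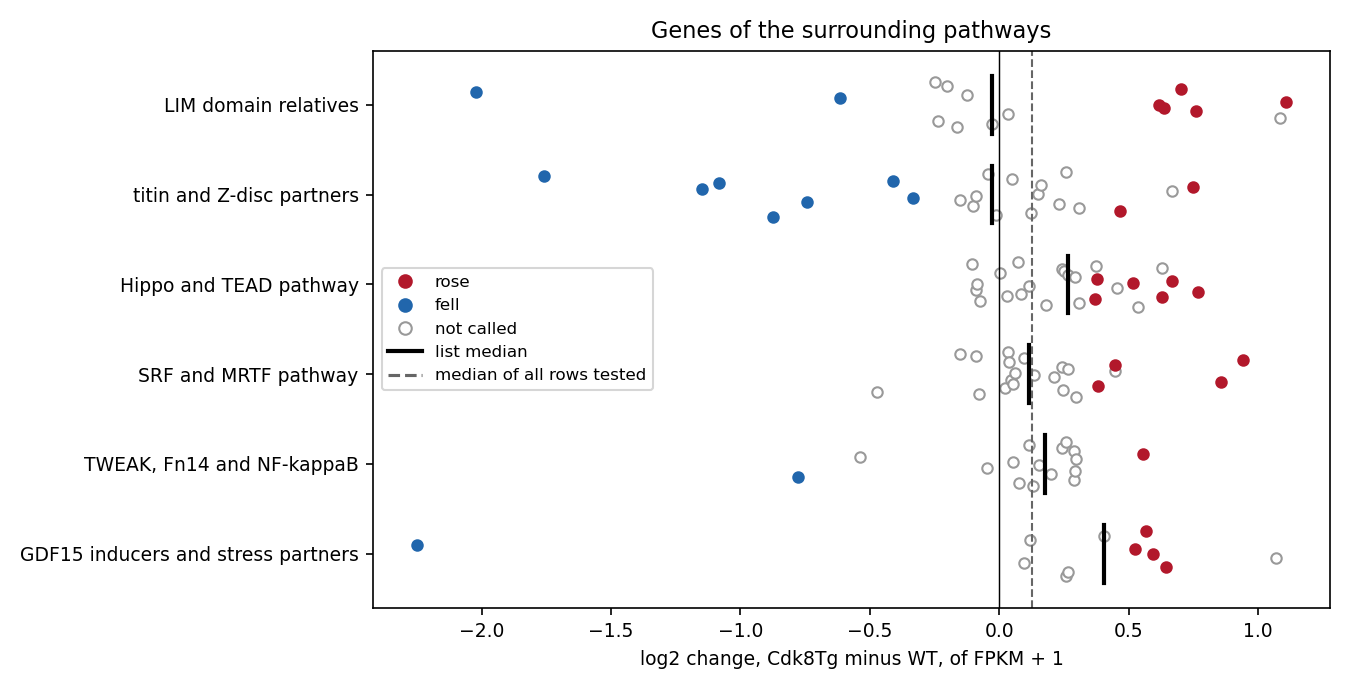
Change in log2(FPKM + 1), Cdk8Tg minus WT, of each tested gene in the 6 pathway lists (1 point per gene); filled red rose, filled blue fell, open not called, black bars are list medians and the dashed line the median of all tested rows. Falls gather among the titin and Z-disc partners, and no filled blue point lies in the Hippo and SRF lists.

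The 3 calls among the 10 genes were compared over 14 alternative fits. Ankrd1 was called in 12, Fhl2 in 11 and Tnfrsf12a in 11 of them, with log2 changes of 1.76 to 2.69, -1.49 to -0.91 and 1.05 to 1.70. Fhl1 and Csrp3 were called in 0 of 14 fits, while Ankrd23, Xirp1 and Xirp2 were called in 1 each and Gdf15 in 2 of 13.

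**Figure D5:**
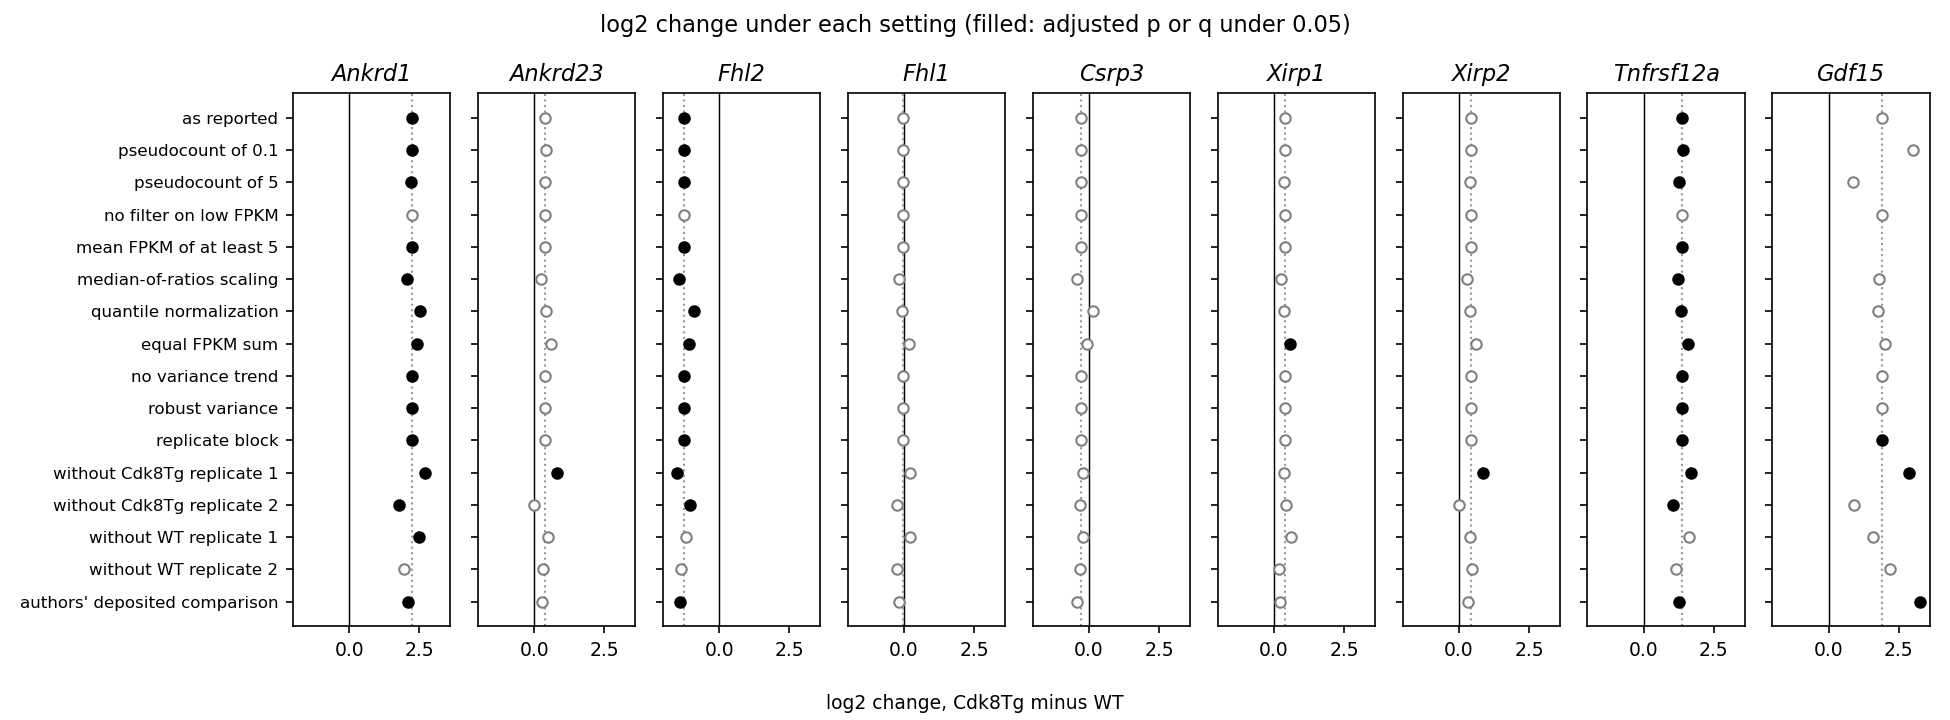
Log2 change, Cdk8Tg minus WT, of the 9 tested genes (columns) as reported and under each alternative (rows); filled points have an adjusted p, or a q-value in the authors' comparison, under 0.05, and the dotted line is the reported value. Ankrd1, Fhl2 and Tnfrsf12a keep their side of 0 in every row, and Gdf15 moves most.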

How the data were processed

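Polyadenylated RNA from 4 mouse ventricle samples was sequenced as stranded libraries, per the labels' protocols. TopHat 1.0.0 aligned the reads to mm10, and Cufflinks and Cuffdiff followed, per the submitters' processing notes. No source used here gives the annotation or strand setting. The deposited FPKM per library, made by the authors, have a scaling between libraries that is not stated. The second deposited table holds group FPKM, a p-value for each gene and its q-value, all from the authors. For the genes described here, its group FPKM are on another scale than the FPKM per library.

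Groups and replicate numbers came from the sample titles. Rows with a mean of at least 1 FPKM were tested with limma 3.58.1 (R 4.3.3) on log2(FPKM + 1), with a trended variance and 2 residual degrees of freedom, and adjusted p-values under 0.05 over all 11888 rows were called. This scale understates changes of low genes. The procedure was tested on simulated data with independent noise, equal spread in both groups and no shift of scale. That test therefore cannot bear on the scaling or on unequal spread between the groups. The 10 genes, the lists and the alternatives were chosen with earlier results of these data known. Pathway genes named are the 4 with the smallest p per list, and the text marks those named after their values were seen. The value of 1 gene that this rule names is not reported here. Alternatives changed the pseudocount, the filter, the scaling, the variance model or the libraries, or added a replicate block. Gene positions and exons are from GENCODE M21 on GRCm38, and promoters from RefSeq.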

Additional observations from a re-analysis of the deposited data

How the results depend on the processing

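With 2 libraries per group, the number of calls changed with the libraries used. Leaving a library out also lowers the degrees of freedom and changes which group gives the spread. A lost call therefore does not show that it rested on that library. For example, the log2 change of Ttn was -0.87 without WT replicate 1, -0.88 without WT replicate 2 and -0.87 with all libraries. Leaving out 1 library at a time gave 287 (without WT replicate 2) to 2380 (without Cdk8Tg replicate 1) called genes of all rows (2958 with all libraries), 0 to 6 called stretch and injury genes (3 with all) and 3 to 35 called pathway genes (33 with all), with 1 residual degree of freedom where the lone library is taken to vary as the other group does. No filter on low FPKM gave 1055, 0 and 12 calls in the same order, with 3 stretch and injury genes at an unadjusted limma p under 0.05. The equal-sum scale gave 5552 and 57 calls among all rows and pathway genes, and the authors' comparison called 1730 genes. As deposited, 67.9% of calls were rises, against 40.6% after median-of-ratios scaling, 48.8% with quantile normalization and 88.2% on the equal-sum scale.

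Fhl1 changed sign on the equal-sum scale (0.17), without Cdk8Tg replicate 1 (0.20) and without WT replicate 1 (0.21), with a range of -0.26 to 0.21 over the fits that left out 1 library, and Csrp3 with quantile normalization (0.13), with no call in any of these. Replicate numbers are shared by the groups, but same-numbered libraries did not deviate together (r = -0.03 across 11888 genes, which are not independent replicates). The replicate block gave 2825 calls over all rows, 37 among pathway genes and 4 among the stretch and injury genes, adding Gdf15 (adjusted p = 0.018). The cause of these shifts was not tested. The number of fragments behind low genes such as Gdf15 and Ankrd2 is unknown, so no counting error can be given for them.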
